A study of Mus musculus with 207 samples.

Results

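The lysosome and autophagy genes described here are 34 genes taken by name from the 44448 gene rows of a single-cell expression table of mouse islet beta cells. They comprise 23 lysosomal genes (enzymes, cofactors and membrane proteins), 10 autophagy genes and the transcription factor Tfeb, and all 34 names were found in the table. The ages compared were 26 months (old, 69 cells) and 3 months (young, 138 cells), and all mice were male. The strain, genotype and number of mice are not given in the labels, and no cell is tied to an animal. Single islet cells were caught on a microfluidic chip (Fluidigm C1), their RNA was copied and amplified there, and expression was deposited as TPM, which is scaled by transcript length and to the same total in every cell.

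Lysosomes are acidic organelles whose hydrolases break down proteins, glycans and lipids, and autophagy carries cytoplasm to them in double-membraned autophagosomes. Proteins of the Atg8 family (LC3 and GABARAP) are attached to the autophagosome membrane, and Sqstm1 links cargo to them. In beta cells, the islet cells that make insulin, lysosomes and autophagy also take up unused insulin granules. TFEB activates many lysosomal and autophagy genes through promoter E-boxes with the core CACGTG.

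Each age counts as 1 sample, because cells are not replicates, so the difference between the ages could not be tested or checked against replicates. Values are means ± SD over the 69 old and the 138 young cells unless stated, a gene is called detected in a cell at a TPM of 1 or above, and read depth is unknown. Intervals of shares of cells are 95% Clopper-Pearson intervals and cover counting error only. An old cell had a median of 4078 detected genes (1916 to 6007) and a young cell 4291.5 (1604 to 6654). Summed TPM of 10 beta cell markers was at least 314740 in every old and 158736 in every young cell. Markers of other islet cells were present beside them, since 34 old and 110 young cells held at least 2 of 5 alpha cell markers at a TPM of 10 or above. Of 207 cells, 6 also carried the transcripts of macrophages and are called macrophage-rich captures below, where the results they move most are also given without them. Cell numbers in the sample titles further fell into 8 runs with differing mitochondrial RNA, which were sought within each age.

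The promoters of the members with more than 1 E-box core show where TFEB-type sites lie in this set. RefSeq promoter windows of GRCm38.p6, from 250 bases before to 50 bases after a start, were held for 28 of the 34 members, and not for Ctsb, Ctsh, Npc1, Laptm4b, Map1lc3a and Becn1. The 4 windows are printed 5′ to 3′ on the strand of the gene, with each CACGTG in capitals. They belong to Lamp1, a structural glycoprotein of the lysosome membrane (chr8:13158911-13159210, + strand), to Ctsd, an aspartic protease (chr7:142387778-142388077, - strand), to Mcoln1, a calcium channel of the lysosome membrane (chr8:3500269-3500568, + strand), and to the second of 2 starts of Ctsa, a carboxypeptidase that stabilises other lysosomal enzymes (chr2:164833523-164833822, + strand).
Lamp1: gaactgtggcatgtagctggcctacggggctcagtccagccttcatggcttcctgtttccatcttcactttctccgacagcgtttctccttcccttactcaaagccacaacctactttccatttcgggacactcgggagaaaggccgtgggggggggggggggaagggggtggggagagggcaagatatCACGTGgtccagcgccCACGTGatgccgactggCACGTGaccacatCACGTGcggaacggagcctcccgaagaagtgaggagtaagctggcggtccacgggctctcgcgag
Ctsd: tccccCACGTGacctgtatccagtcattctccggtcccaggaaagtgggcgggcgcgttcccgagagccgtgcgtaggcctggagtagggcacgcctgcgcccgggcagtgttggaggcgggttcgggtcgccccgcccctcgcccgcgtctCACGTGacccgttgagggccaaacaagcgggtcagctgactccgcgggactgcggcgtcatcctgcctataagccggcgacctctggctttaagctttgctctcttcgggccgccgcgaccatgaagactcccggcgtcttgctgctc
Mcoln1: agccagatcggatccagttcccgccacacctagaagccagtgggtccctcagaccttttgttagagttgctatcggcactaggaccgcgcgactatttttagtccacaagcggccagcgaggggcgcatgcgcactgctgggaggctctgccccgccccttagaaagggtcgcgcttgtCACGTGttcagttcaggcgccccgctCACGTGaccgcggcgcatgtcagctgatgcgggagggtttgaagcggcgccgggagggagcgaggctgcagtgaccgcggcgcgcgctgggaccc
Ctsa: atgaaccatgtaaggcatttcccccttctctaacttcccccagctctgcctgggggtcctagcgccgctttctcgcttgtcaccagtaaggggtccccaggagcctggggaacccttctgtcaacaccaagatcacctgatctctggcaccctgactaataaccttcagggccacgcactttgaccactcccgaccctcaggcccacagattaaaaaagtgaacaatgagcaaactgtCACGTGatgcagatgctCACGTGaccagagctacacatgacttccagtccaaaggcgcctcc

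The core was found in 8 of 19 lysosomal promoters (42.1%), in 2 of 8 autophagy promoters (25.0%) and in none of the 3 Tfeb windows. It was present in 8.09% of the 27025 genes with a promoter entry and in 12.1% of the 8754 such genes whose mean TPM reached 1 in old or in young cells. The palindrome CACGTG reads the same on both strands. The longer TCACGTG, which contains it and was sought on both strands, was found in 6 of 19 lysosomal and 1 of 8 autophagy promoters. It was present in 4.29% of all genes with a promoter entry and in 7.35% of the 8754 genes whose mean TPM reached 1. Lamp1 held 4 cores within 61 bases before its start, and 6 of the 27025 genes held 4 or more. Mcoln1 held 2 cores, beginning 71 and 45 bases before the start, Ctsd 2 at 245 and 98 bases, and Ctsf, Ctsl, Glb1, Gaa, Atg5 and Atg7 held 1 each. A match of letters is a description and no measure of binding.

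Cd63 gave the most lysosomal transcript and Gabarap the most autophagy transcript at both ages. Cd63, a tetraspanin of late endosomes, lysosomes and secretory granules (chr10:128896231-128912822, GRCm38.p6), was detected in all 69 old and all 138 young cells. Its level in old cells was 1.45 TPM at the lowest, 784 at the median and 4555 at the highest, with a mean of 1021 ± 948 TPM. In young cells it was 1.35, 754 and 4520 TPM, with a mean of 983 ± 900 TPM. The 2 ages thus spanned nearly the same range, and the log2 ratio (old over young) was 0.05. The same holds for Gabarap (chr11:69991370-69994949), an Atg8-family protein of late autophagosome formation, which was also detected in every cell. It lay at 3.40, 305 and 905 TPM in old cells (mean 341.5 ± 255) and at 2.07, 301 and 1166 TPM in young cells (mean 348 ± 256), a log2 ratio of -0.03. Age ratios here and below are log2 of the ratio of mean TPM plus a pseudocount of 1 TPM, which understates the differences of low genes.

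**Figure D1:**
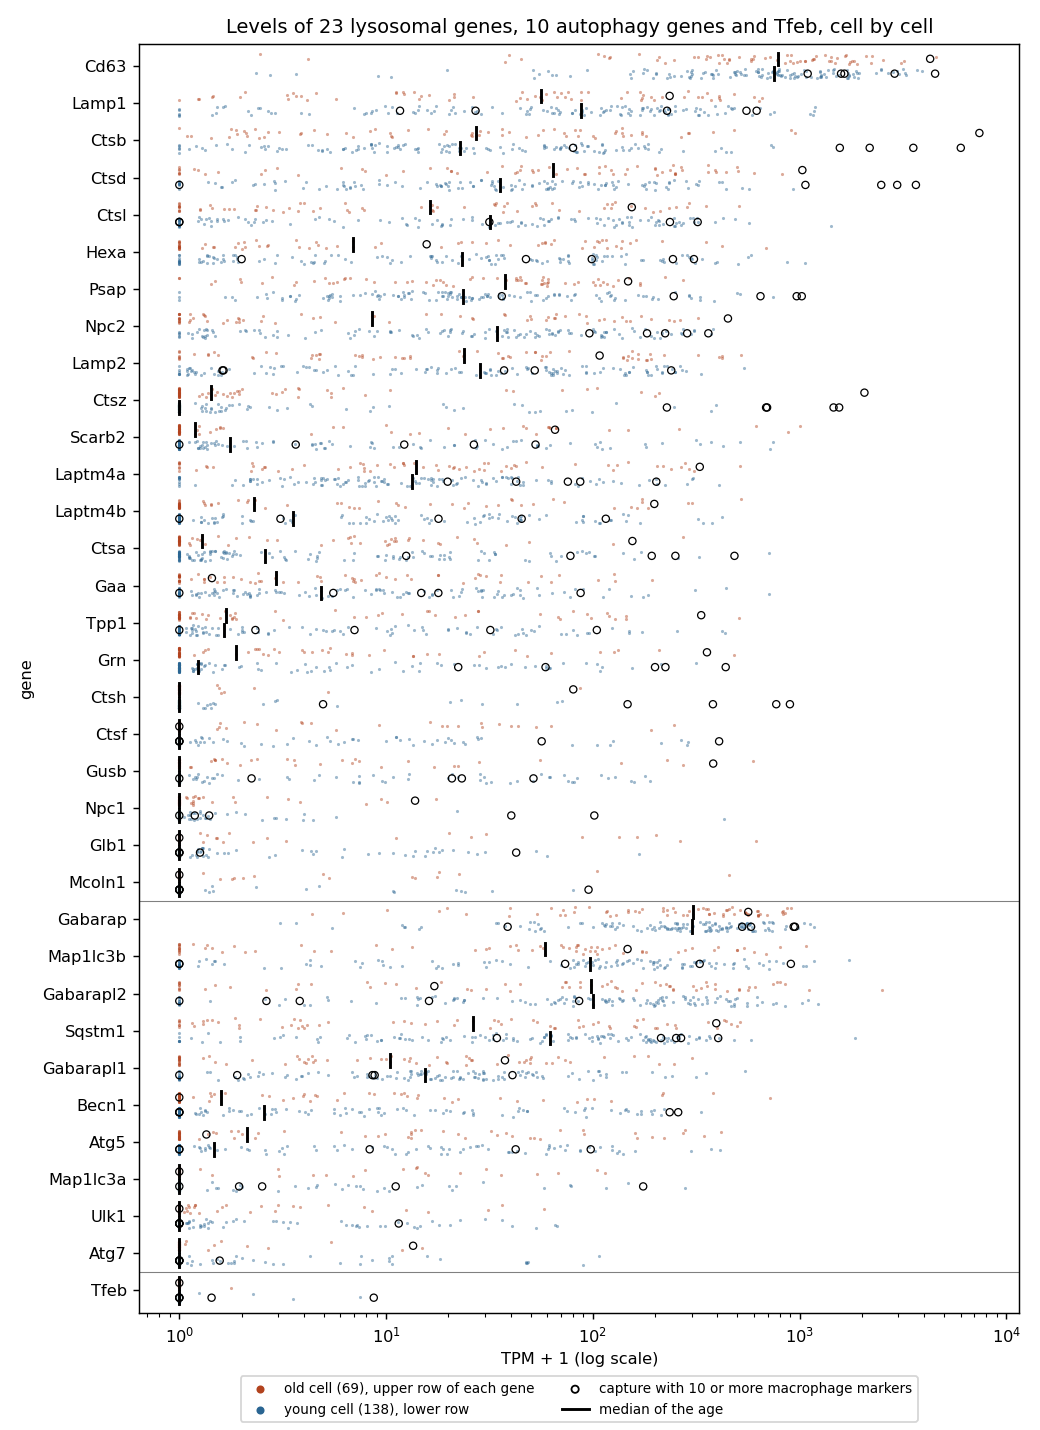
TPM + 1 on a log axis for each of the 34 genes, with old cells in the upper and young cells in the lower row of each gene. Points are cells, black bars are medians, and open circles are the 6 macrophage-rich captures. Cd63 and Gabarap lead their groups at both ages, and for Ctsb, Ctsd and Ctsz 5 of the 6 circles lie to the right of every other cell.

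Within single cells the same order held, which does not depend on the total to which a cell is scaled. Cd63 was the most abundant of the 23 lysosomal genes in 53 of 69 old and 110 of 138 young cells, and it exceeded Lamp1 in 64 old and 128 young cells. The other 22 lysosomal genes together averaged 1121 ± 1702 TPM in old and 1201 ± 1751 TPM in young cells, close to Cd63 alone. Without the macrophage-rich captures these 22 genes averaged 939 ± 787 TPM in old and 936 ± 694 TPM in young cells, and Cd63 973 ± 867 TPM in old and 932 ± 842 TPM in young cells. Gabarap led the 10 autophagy genes in 36 old and 71 young cells. It was above Map1lc3b in 57 old and 101 young cells, above Gabarapl2 in 50 old and 108 young cells, and above Gabarapl1 in 66 old and 129 young cells. Gabarapl2 and Map1lc3b had no such clear order, with Gabarapl2 the higher in 43 old and 69 young cells. Map1lc3b exceeded its close relative Map1lc3a in 53 old and 111 young cells.

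Among the other Atg8-family genes, Gabarapl2 averaged 231 ± 373 TPM in old and 185 ± 232 TPM in young cells, and Map1lc3b, the LC3 form most used as an autophagosome marker, 133 ± 211 TPM in old and 191 ± 273 TPM in young cells. The median of Gabarapl2 was 96.8 TPM in old and 99.1 TPM in young cells, and that of Map1lc3b 57.7 TPM in old and 96.1 TPM in young cells. Map1lc3b had a log2 ratio of -0.52, under the 1.5-fold size used below. Gabarapl1 averaged 32.7 ± 59.1 TPM in old and 36.2 ± 70.2 TPM in young cells. Map1lc3a was the rarest of the family, detected in 26.1% of old and 21.7% of young cells. The family therefore spanned more than an order of magnitude between Gabarap and Map1lc3a at both ages.

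Sqstm1, the cargo receptor p62, ranged from 0 through a median of 25.4 to 516 TPM in old cells and from 0 through 61.2 to 1862 TPM in young cells. It was detected in 76.8% of old cells (interval 65.1 to 86.1%) and in 91.3% of young cells (85.3 to 95.4%). Its mean of 95.9 ± 143 TPM in old and 119.8 ± 189 TPM in young cells gave a log2 ratio of -0.32, while the difference of mean log2(TPM + 1) was -1.13. Both measures of Sqstm1 were lower in old cells, to a differing extent, and the intervals of its shares overlapped slightly. Of the core machinery, Atg5, whose protein is joined to Atg12 to help lipidate the Atg8 proteins, averaged 40.0 ± 86.0 TPM in old and 26.5 ± 61.2 TPM in young cells. Becn1, a subunit of the lipid kinase complex that nucleates the autophagosome, averaged 32.5 ± 103 TPM in old and 31.3 ± 63.5 TPM in young cells. Ulk1, the kinase that starts autophagy, was detected in 14 old and 32 young cells, and Atg7, the E1-like enzyme of Atg8 conjugation, in 6 old and 22 young cells. As read depth is unknown, an undetected gene is not shown to be silent.

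Of the proteases, Ctsb and Ctsd had the highest means over all cells. Ctsb, a cysteine protease, ranged from 0 through a median of 26.2 to 7401 TPM in old cells (mean 197 ± 897) and from 0 through 21.7 to 6017 TPM in young cells (mean 162 ± 633). Ctsd ranged from 0 through 63.1 to 1030 TPM in old cells (mean 146 ± 199) and from 0 through 34.8 to 3649 TPM in young cells (mean 157 ± 463). For both genes the SD exceeded the mean, and the highest captures stood far above the medians. Without the macrophage-rich captures Ctsb averaged 90.6 ± 175 TPM in old and 67.5 ± 119 TPM in young cells, and Ctsd 133 ± 168 TPM in old and 86.0 ± 133 TPM in young cells. Ctsl, another cysteine protease, averaged 60.9 ± 99.9 TPM in old and 92.8 ± 161 TPM in young cells. Without the captures it had 59.5 ± 100.0 TPM in old and 91.9 ± 161 TPM in young cells, which was then the highest mean of the proteases in young cells. The serine protease Tpp1 averaged 31.2 ± 79.4 TPM in old and 23.1 ± 62.0 TPM in young cells. Ctsa averaged 12.9 ± 40.0 TPM in old and 31.0 ± 87.0 TPM in young cells, and Ctsf 11.9 ± 38.5 TPM in old and 16.7 ± 58.1 TPM in young cells. Ctsz and Ctsh were undetected in most cells. Ctsz was detected in 33.3% of old and 23.9% of young cells, and Ctsh in 5.80% of old and 10.9% of young cells.

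Of the glycosidases, Hexa had the highest mean at both ages. Hexa, the alpha subunit of beta-hexosaminidase A, averaged 55.5 ± 109.6 TPM in old and 86.7 ± 158 TPM in young cells, and Gaa, which breaks down glycogen, 16.6 ± 34.7 TPM in old and 27.6 ± 79.7 TPM in young cells. Gusb, beta-glucuronidase, averaged 26.2 ± 93.7 TPM in old and 15.4 ± 36.2 TPM in young cells. Of the lumenal cofactors, Psap, the precursor of the saposins that help enzymes degrade sphingolipids, was found in 91.3% of old and 95.7% of young cells, at 50.5 ± 56.8 TPM in old and 83.2 ± 164 TPM in young cells. Npc2, which binds cholesterol inside the lysosome, was found in 62.3% of old cells (49.8 to 73.7%) and 84.1% of young cells (76.9 to 89.7%), at 53.2 ± 87.4 TPM in old and 68.8 ± 90.6 TPM in young cells. Grn, the precursor of the granulins, was found in 49.3% of old and 37.7% of young cells, at 25.2 ± 77.6 TPM in old and 20.7 ± 58.5 TPM in young cells.

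Among the membrane proteins, Lamp1 ranged from 0 through a median of 55.2 to 654 TPM in old cells (mean 127 ± 166) and from 0 through 86.4 to 1180.1 TPM in young cells (mean 169 ± 236). Lamp2, its relative that also serves chaperone-mediated autophagy, averaged 75.9 ± 116 TPM in old and 63.5 ± 88.3 TPM in young cells. Lamp1 exceeded Lamp2 in 46 of 69 old and 99 of 138 young cells. Scarb2, a membrane protein of the lysosome, averaged 53.7 ± 175 TPM in old and 40.2 ± 116 TPM in young cells. Laptm4a averaged 57.7 ± 102 TPM in old and 37.9 ± 67.6 TPM in young cells, and Laptm4b 40.7 ± 89.8 TPM in old and 31.2 ± 68.4 TPM in young cells. Npc1, the membrane partner of Npc2 in cholesterol export, was detected in 8 old and 13 young cells only. Tfeb itself was at the limit of the assay, with 0 of 69 old cells (interval 0 to 5.21%) and 4 of 138 young cells at a TPM of 1 or above.

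A cell held a median of 13 of the 23 lysosomal genes in old and 14 in young cells (6 to 19 in old, 6 to 20 in young cells) and a median of 6 of the 10 autophagy genes at both ages. Summed over the 23 lysosomal genes, old cells had 2141.5 ± 2415 TPM (51.9 at the lowest, 1526 at the median, 17776.5 at the highest) and young cells 2184 ± 2362 TPM (129, 1621 and 18233). Summed over the 10 autophagy genes, old cells had 917 ± 646 TPM (18.9, 749.8, 2913) and young cells 954 ± 592 TPM (9.47, 881, 4529). The means of the ages differed by far less than the SD between cells in both sums. The 23 lysosomal members thus made up 0.214% of TPM in old and 0.218% in young cells, other lysosomal genes not counted.

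The age ratios of single members lay on both sides of 0. Genes were kept where the mean TPM reached 1 in old or in young cells, which left 33 of the 34 members, without Tfeb, and 12155 genes in all. At 1.5-fold or more, 4 members were higher in old cells, against 16.8% of all genes, and 8 were lower, against 26.4% of all genes. These shares are close to the background, and the counts are no result about the members. The median log2 ratio was -0.07 over the 23 lysosomal and -0.13 over the 10 autophagy genes, beside -0.10 over all genes. The 4 higher members were Glb1 (2.12), Mcoln1 (1.72), Gusb (0.73) and Laptm4a (0.59). The 8 lower members were Ctsh (-2.42), Npc1 (-1.51), Atg7 (-1.46), Ctsa (-1.20), Psap (-0.71), Gaa (-0.70), Hexa (-0.63) and Ctsl (-0.60). The other 21 lay within 1.5-fold.

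Glb1 encodes lysosomal beta-galactosidase, the enzyme behind the staining used for senescent cells (chr9:114401078-114474379). It was detected in about the same share of cells at both ages, 13 of 69 old (18.8%, interval 10.4 to 30.1%) and 28 of 138 young cells (20.3%, 13.9 to 28.0%). Its median was 0 at both ages, and the highest cell had 613 TPM in old and 166 TPM in young cells. The mean was 22.5 ± 86.1 TPM in old and 4.42 ± 16.6 TPM in young cells. The difference in the mean lay in a few high cells, as 5 old cells and 1 young cell stood at a TPM of 100 or above, while the shares of cells with the transcript overlapped. Without the highest cell at each age the mean was 13.8 TPM in old and 3.24 TPM in young cells. In the low-kind runs described below the log2 ratio was 2.30, in the high-kind runs 1.48, and without the old cells 159 to 190 it was 1.10. Tmppe, a gene overlapping Glb1 on the same strand, had 0.206 TPM in old and 0.0983 TPM in young cells.

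Mcoln1 (chr8:3500519-3515232) was detected in 11 old cells (15.9%, interval 8.24 to 26.7%) and 11 young cells (7.97%, 4.05 to 13.8%). The mean was 9.45 ± 56.0 TPM in old and 2.18 ± 11.2 TPM in young cells, with a median of 0 at both ages and a highest cell of 456 TPM in old and 94.3 TPM in young cells. A single old cell, number 203, held 69.9% of all Mcoln1 TPM of the old cells. Without the run of old cells 200 to 207 the log2 ratio was 0.31, and without the highest cell at each age 0.64. Gusb and Laptm4a rested on 1 run, since without the old cells 159 to 190 their ratios were -0.16 and -0.40.

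Of the lower members, Atg7 averaged 0.669 ± 2.61 TPM in old and 3.60 ± 14.1 TPM in young cells, with a highest cell of 13.9 TPM in old and 106 TPM in young cells. It was lower in old cells in both kinds of runs, at -1.06 and -1.96. Npc1 averaged 0.937 ± 2.96 TPM in old and 4.51 ± 37.8 TPM in young cells, and young cell 75 alone held 69.4% of the young total. Without the highest cell at each age the Npc1 ratio was -0.48. Gaa was lower in old cells of both kinds, at -0.68 in the low and -2.27 in the high kind. Ctsa, Hexa and Psap were lower in old cells of the low kind, at -2.36, -1.50 and -1.45, but in the high kind they lay at -0.16, 0.23 and 0.36. Within the low-kind runs 4 members were higher and 13 lower in old cells at 1.5-fold, against 23.8% and 34.5% of all genes, and within the high-kind runs 3 were higher and 10 lower, against 21.9% and 32.8%. The direction of several ratios therefore depended on the runs compared. Run means of the 2 ages overlapped for all 34 members. The share of all genes with such overlap is not given here, so this count is no result about the members.

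**Figure D2:**
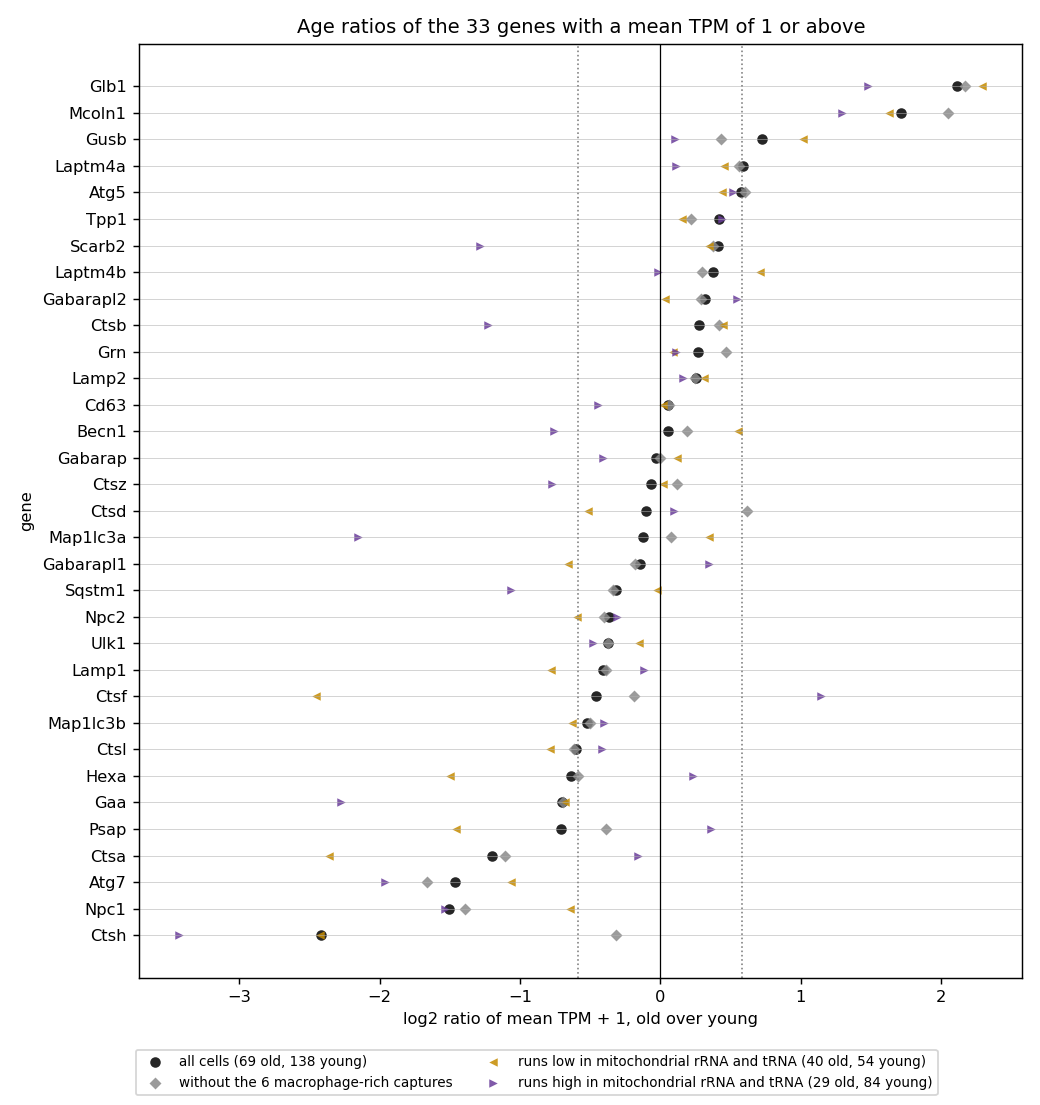
Log2 ratio of mean TPM + 1, old over young, for the 33 members that passed the filter on low values, over all cells (circles), without the 6 macrophage-rich captures (diamonds) and within the low-kind and high-kind runs (triangles). Dotted lines mark 1.5-fold. Glb1 and Mcoln1 lie right and Atg7, Npc1 and Gaa left of the dotted lines in all 4 comparisons, while Ctsh moves to -0.31 without the captures.

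While Ctsa and Ctsl peaked in other cells at both ages, the highest Ctsb, Ctsd and Ctsz levels belonged to the 6 macrophage-rich captures. These were the old cell 162 and the young cells 18, 32, 49, 72 and 112, in which 10 to 12 of 12 macrophage markers stood at a TPM of 10 or above, while no other cell had more than 3. Their summed marker TPM was 22651 in the old and 9193 to 26279 in the young captures, against at most 191 in the other old and 211 in the other young cells. Insulin transcripts were present in the same captures, at 30.5% of TPM in the old and 15.7 to 49.9% in the young ones, against a median of 51.7% in old and 54.5% in young cells. No doublet caller was run, and whether a capture held 2 cells was not tested.

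In lysosomal sum these captures ranked 1 to 4, 6 and 58 of 207 cells. Old cell 162 had 17776.5 TPM, and the young cells 112, 18, 49, 32 and 72 had 18233, 15239.7, 9178, 7885 and 2395 TPM. Their autophagy sums were not set apart, at 1169.5 TPM in the old and 443 to 1979 TPM in the young captures, and ranked between 13 and 168. Most of these captures were thus extreme in lysosomal and not in autophagy transcripts.

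Ctsb reached 7401 TPM in the old capture and 6017, 3546, 2181, 1563 and 79.2 TPM in the young ones, and 5 of the 6 lay above every other cell. Ctsz had 2057 TPM in the old and 227 to 1552 TPM in the young captures. Ctsd had 1030 TPM in the old capture and 3649, 2963, 2481, 1066 and 0 TPM in the young ones. Ctsh, a cysteine protease with aminopeptidase activity, had 79.4 TPM in the old and 3.96 to 897 TPM in the young captures. The 1 old capture held 45.8% of the Ctsh TPM of all old cells and the 5 young captures 89.4% of that of all young cells. For Ctsz the shares were 67.7% in old and 72.4% in young cells, for Ctsb 54.6% in old and 59.9% in young cells, and for Ctsd 10.3% in old and 47.0% in young cells. Most of the Ctsz and Ctsb TPM at both ages thus came from the captures, and most of the Ctsd TPM at both ages from other cells. Psap reached 147 TPM in the old and 35.3 to 1023 TPM in the young captures, and Grn 355 TPM in the old and 21.3 to 438 TPM in the young ones. Gabarapl2 went the other way, with a median of 8.98 TPM over the 6 captures beside medians of 96.8 TPM in all old and 99.1 TPM in all young cells.

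Without the 6 captures, 68 old and 133 young cells remained, and several age ratios moved. Ctsh averaged 1.38 ± 10.4 TPM in old and 1.96 ± 9.59 TPM in young cells, a log2 ratio of -0.31 in place of -2.42. Ctsd averaged 133 ± 168 TPM in old and 86.0 ± 133 TPM in young cells, at 0.62 in place of -0.10. Psap moved to -0.38, Gusb to 0.43, Laptm4a to 0.56 and Atg5 to 0.60. The counts at 1.5-fold were then 4 higher members (17.2% of 11913 genes in all) and 6 lower (25.4%). The median ratio of the lysosomal genes was 0.12 and that of the autophagy genes -0.09. The lysosomal sum averaged 1912 ± 1489 TPM in old and 1868 ± 1354 TPM in young cells, with the SD again above the difference of the ages.

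**Figure D3:**
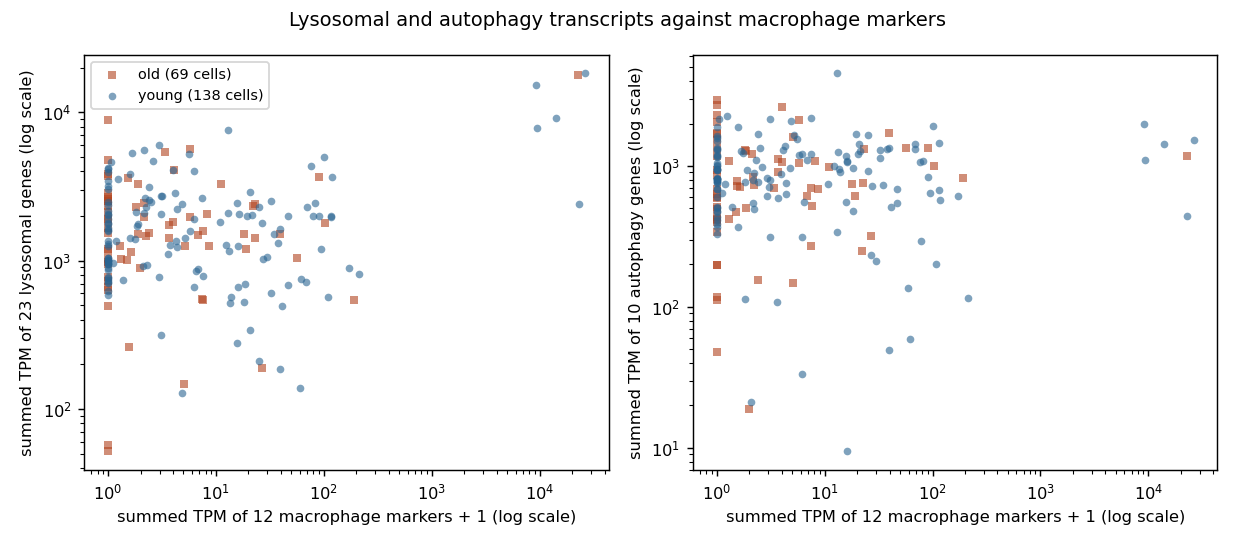
Summed TPM of the 23 lysosomal genes (left) and the 10 autophagy genes (right) against the summed TPM of 12 macrophage markers + 1, per cell, all axes on a log scale. Squares are old and circles young cells. The 6 macrophage-rich captures stand apart at 9193 TPM or above on the horizontal axis, and 5 of them are among the 6 highest lysosomal sums, while their autophagy sums lie within the range of the other cells.

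The lysosomal sum also followed the runs of cell numbers. Runs are stretches of cells, found after the values had been seen, between shifts in detected genes, mitochondrial transcripts and nuclear noncoding RNAs. Runs of the low kind (old cells 159 to 190 and 200 to 207, young cells 1 to 54) had mean mitochondrial rRNA and tRNA of 0.264% of TPM in old and 0.373% in young cells, and runs of the high kind 2.24% in old and 1.28% in young cells. What sets the runs apart is not given in the labels, and since each run holds cells of 1 age, effects of run and age cannot be told apart. The lysosomal sum in low-kind runs was 2735 ± 3001 TPM in old (n = 40 cells) and 3041 ± 2654 TPM in young cells (n = 54). In high-kind runs it was 1323 ± 651 TPM in old (n = 29) and 1633 ± 1983 TPM in young cells (n = 84). At both ages the low kind was the higher, and this was also so without the 6 captures, when old cells had 2349 ± 1770.5 TPM in the low kind and 1323 ± 651 TPM in the high kind, and young cells 2586 ± 1748 TPM in the low kind and 1421 ± 757 TPM in the high kind. The means of the kinds thus differed more than the means of the ages, and the ranges of cells overlapped in both contrasts.

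It was not uniform over the runs of a kind. Without the captures the old runs 139 to 158, 159 to 190, 191 to 199 and 200 to 207 averaged 1499.9, 2236, 929.7 and 2788 TPM, and the young runs 1 to 39, 40 to 54, 55 to 86 and 87 to 138 averaged 3265, 792, 1117 and 1607 TPM. The low-kind young cells 40 to 54 had the lowest mean of all 8 runs, and also the fewest detected genes, with a median of 2320. The part of depth and of mitochondrial RNA in these values was not tested.

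Cd63 carried much of the contrast, at 1361 ± 1067 TPM in low-kind and 551 ± 452 TPM in high-kind old cells. In young cells it had 1344 ± 1049 TPM in the low and 751 ± 703 TPM in the high kind. The young contrast rested on cells 1 to 39, with a Cd63 mean of 1701 TPM. Low-kind young cells 40 to 54 had 418 TPM, below 575 TPM in the high-kind cells 55 to 86 and 859 TPM in 87 to 138. At 1.5-fold or more at both ages, 12 of 23 lysosomal genes were higher in the low kind, against 9.65% of all 12155 genes, and none of the 10 autophagy genes was. Without the captures the count was 8 of 23, against 9.21% of all genes. These 8 were Ctsb, Ctsd, Ctsh, Gaa, Psap, Scarb2, Cd63 and Laptm4a, as the log2 ratios of low over high kind without the captures show. Scarb2 had 3.19 in old and 1.63 in young cells, and Gaa 2.87 in old and 1.24 in young cells. Laptm4a had 1.41 in old and 1.16 in young cells, and Cd63 1.22 in old and 0.90 in young cells. Run means, captures included, did not all follow the kind. In old cells the low-kind run 200 to 207 had Scarb2 at 10.1 TPM, below 15.8 TPM in the high-kind run 191 to 199. Its Laptm4a, at 33.3 TPM, lay below 35.2 TPM in the high-kind run 139 to 158. In young cells the low-kind run 40 to 54 had Gaa at 20.5, Laptm4a at 27.2, Ctsb at 113 and Ctsh at 9.76 TPM. The high-kind run 87 to 138 had 24.8, 31.2, 181 and 19.3 TPM. Ctsd means include capture 49, with 2963 TPM, in young run 40 to 54 (261 TPM). They also include capture 162, with 1030 TPM, in old run 159 to 190 (161 TPM). Without the captures Ctsh was detected in 4.41% of old cells, and cell 203 held 91.6% of the old total. Scarb2 in young and Gaa in old cells were higher in each low-kind run. Npc1 alone was lower in the low kind at both ages, against 11.2% of all genes, at -1.22 in old and -2.08 in young cells without the captures (11.6% of all genes). Its values rest on few cells, as it was then detected in 10.3% of old and 8.27% of young cells. High-kind young cell 75 alone held 89.7% of the young Npc1 total. The median low-over-high log2 ratio over all genes was -0.02 in old and -0.01 in young cells, so the contrast of the kinds was not shared by the typical gene. Gabarap had 0.69 in old and 0.06 in young cells.

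**Figure D4:**
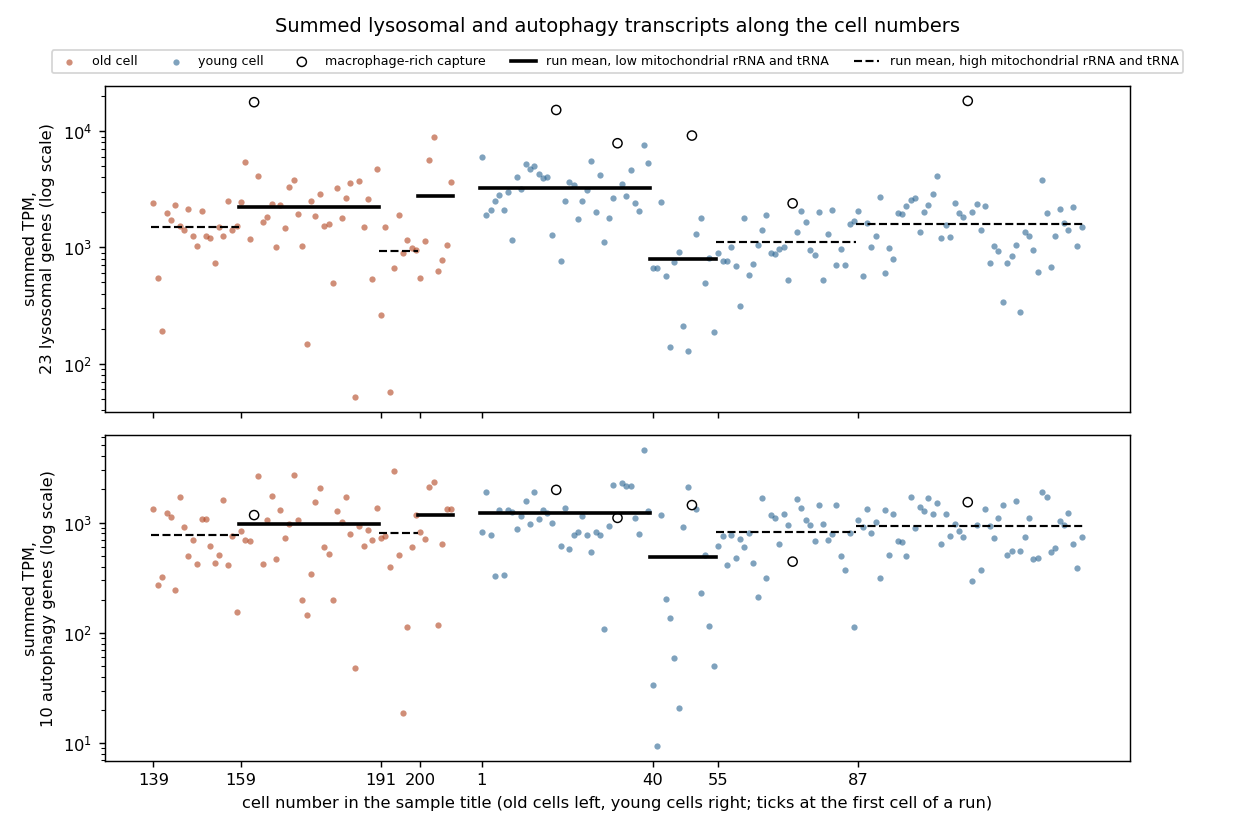
Summed TPM of the 23 lysosomal (top) and 10 autophagy genes (bottom), on a log scale, along the cell numbers, with old cells left and young cells right. Lines are run means without the 6 macrophage-rich captures (open circles), solid for low-kind and dashed for high-kind runs. The lysosomal run means lie between 792 and 3265 TPM, and the young run 1 to 39 has the highest.

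Members varied together only weakly. Of the 34, 25 (18 lysosomal, 7 autophagy) were detected in at least 25% of cells and had a mean TPM of 10 or above at both ages, as did 3126 genes in all. Over the 69 old cells the median Spearman correlation was 0.14 among lysosomal genes, 0.16 among autophagy genes and 0.12 between the groups, beside 0.07 among all genes. Over the 138 young cells it was 0.14, 0.15 and 0.08, beside 0.08 among all genes. With run means of ranks taken out and without the 6 captures, the values were 0.14, 0.17 and 0.12 in old cells, beside 0.07 among all genes, and 0.07, 0.06 and 0.03 in young cells, beside 0.03. Cells share a run, a depth and a fixed TPM total, and correlations of this size in sparse values are no finding. None of the 300 member pairs reached 0.3 at both ages within runs and without the captures. The nearest were Ctsd with Becn1 (0.26 in old and 0.26 in young cells) and Ctsd with Scarb2 (0.33 in old and 0.26 in young cells). Ctsb with Lamp1 had 0.48 in old but 0.11 in young cells.

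**Figure D5:**
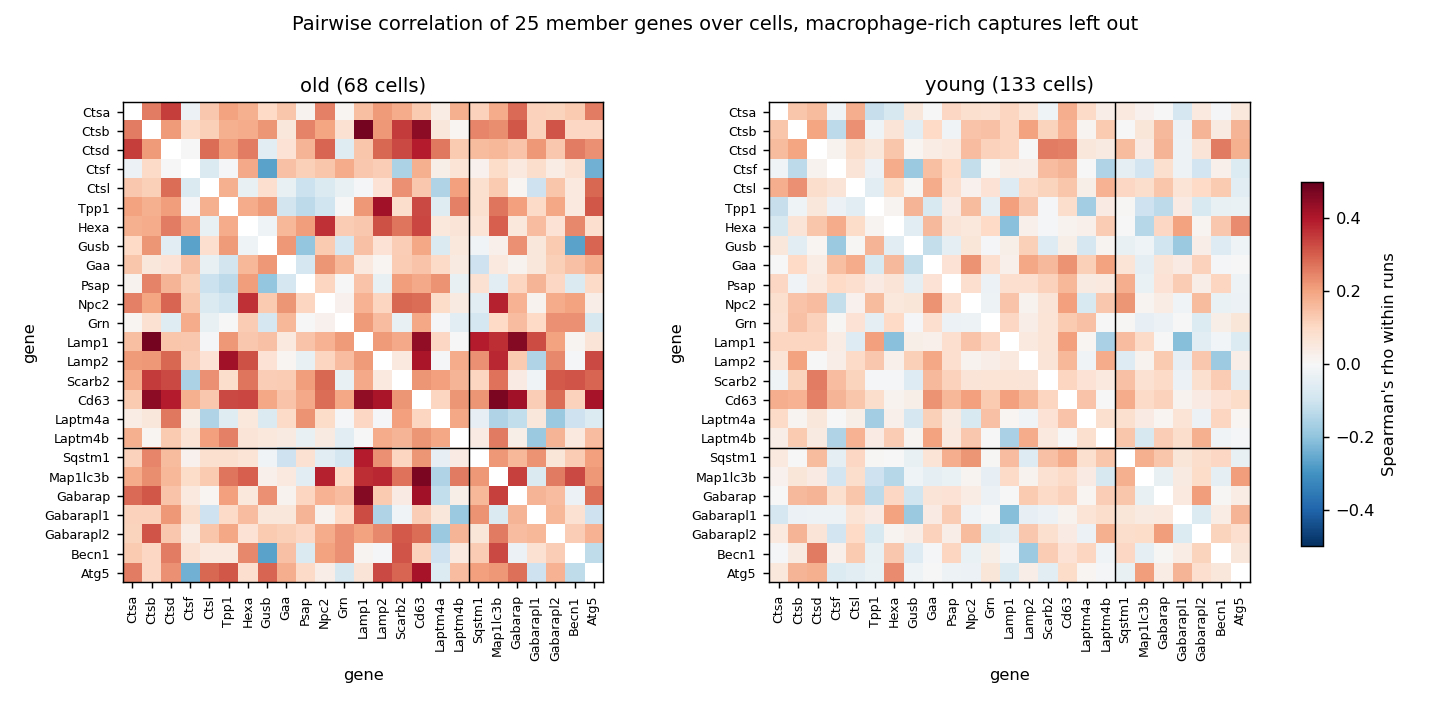
Spearman's rho within runs for each pair of 25 members over 68 old (left) and 133 young cells (right), without the 6 macrophage-rich captures. Black lines part the 18 lysosomal from the 7 autophagy genes. Most squares are pale, with a highest value of 0.48 in old and 0.26 in young cells.

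The summed levels went together more than single genes did, but both sums share the depth and the fixed total of a cell. Lysosomal and autophagy sums had a Spearman correlation of 0.55 over the 69 old and 0.42 over the 138 young cells. Within runs and without the captures it was 0.54 in old and 0.26 in young cells. With Cd63 also taken out of the lysosomal sum, it was 0.42 in old and 0.24 in young cells. With insulin TPM the lysosomal sum had -0.42 in old and -0.56 in young cells, values that share the fixed total of a cell. With the number of detected genes it had 0.41 in old and 0.19 in young cells. Among 2891 genes that are not members, those most like the lysosomal sum within runs, by the smaller of both ages, were Ftl1-ps1 (0.60 in old, 0.56 in young cells), Ftl1 (0.71 in old, 0.55 in young), Aldoa (0.49 in old, 0.45 in young), Cox5a (0.48 in old, 0.41 in young) and Eef1a1 (0.52 in old, 0.39 in young). Ftl1 encodes the light chain of ferritin, the iron store that autophagy delivers to lysosomes, and its pseudogene Ftl1-ps1 may share its reads. Without the captures Ftl1-ps1 had 0.58 in old and 0.48 in young cells, and Ftl1 0.70 in old and 0.48 in young cells. With Cd63 taken out of the sum, Ftl1-ps1 had 0.52 in old and 0.35 in young cells and Ftl1 0.63 in old and 0.34 in young cells, and in young cells Eef1a1 (0.37) and Cox5a (0.36) then lay above both, so the order depended on Cd63. The median over those genes was 0.17 in old and 0.08 in young cells.

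Of 47 other lysosomal genes, 44 passed the filter on low values, with a median log2 ratio of -0.19. At 1.5-fold, 2 were higher in old cells, against 16.8% of all genes, and 9 lower, against 26.4%. Without the captures 42 passed, with a median of -0.13, 1 higher (17.2% of all genes) and 10 lower (25.4%). The genes named from these lists are those with the most extreme ratios among genes with a mean TPM of at least 10, and rarer genes can lie beyond them. Lgmn, a protease, had 5.23 ± 27.0 TPM in old and 43.1 ± 257 TPM in young cells (-2.82). It was detected in 8.70% of old and 21.7% of young cells, and 1 cell held 46.7% of the old and 1 cell 38.0% of the young total. Acp2, an acid phosphatase, had 4.13 ± 10.9 TPM in old and 16.4 ± 70.8 TPM in young cells (-1.76). Ratios of Lgmn and Acp2 without the captures are not given here. At the other end was Gnptg, a subunit of the enzyme that tags hydrolases for the lysosome (0.41). Of 40 other autophagy genes, all 40 passed, with a median of -0.13, 4 higher and 11 lower, again against 16.8% and 26.4% of all genes. With the same limit on the mean, the lowest were Atg12 (-1.86), the ubiquitin-like partner of Atg5, and Pik3c3 (-1.80), the lipid kinase of the Becn1 complex, and the highest Bnip3 (0.70), a mitophagy receptor, and Atg4a (0.76), a protease of Atg8 proteins. For Atg4a 1 old cell held 79.4% of the old total, and for Atg12, whose mean was the lower in old cells, 1 old cell held 77.3%. Below that limit, Wipi1 (-2.07) and Snap29 (1.01) lay beyond these genes. Of 20 genes of nutrient signalling at the lysosome, 18 passed, with a median of -0.02, 2 higher and 5 lower, against the same 16.8% and 26.4%. Among those with a mean TPM of at least 10, Flcn (-0.95) and Rraga (-0.68), which act on mTORC1, lay lowest, and Rragd (0.39) and Lamtor5 (0.61), of the same machinery, highest, while the rarer Tsc1 (-0.84) and Rptor (-0.82) lay below Rraga and Rragb (0.73) above Lamtor5. These rarer genes were named after their values were seen. The medians lie near the -0.10 of all genes, as those of the members do.

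Members with and without a promoter E-box lay on both sides of an age ratio of 0. The 10 members with a core had a median log2 ratio of -0.43, with 2 higher and 4 lower in old cells at 1.5-fold, and the 17 others with a promoter and a ratio had -0.03, with 2 higher and 2 lower, against 16.8% of all genes higher and 26.4% lower. Without the captures the medians were -0.29 with a core and 0.06 without. The higher members were Glb1 and Mcoln1 with a core and Gusb and Laptm4a without. The difference between members with and without a core was not tested. Overlapping genes could add reads to some members, since strand handling is not given in the sources used here. Grtp1, opposite to Lamp1, had 14.0 TPM in old and 3.68 TPM in young cells, Cntd1, opposite to Becn1, 1.65 TPM in old and 1.29 TPM in young cells, and Pltp, opposite to Ctsa, 0.166 TPM in old and 2.82 TPM in young cells. The pseudogene Cd63-ps had 2.57 TPM over all cells.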

How the data were processed

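The authors deposited TPM values, scaled by transcript length, 1 column per cell, matched to the samples by title; 0 columns were unused. Per the submitters' processing notes the build was GRCm38 (mm10), with CASAVA 1.8.2 and FastQC. The sources used here do not name the aligner, the counting program, the annotation or the strand handling. TPM keeps no read depth, and a gain in abundant insulin transcripts lowers all others.

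Gene numbers were matched to symbols through a RefSeq table of GRCm38.p6 (39725 of 44448 rows), which also gave coordinates and promoters. All 34 members were described, and of the wider lists the 2 highest and 2 lowest ratios among genes with a mean TPM of at least 10. A gene named by that rule is not reported here. Members and lists were chosen with earlier results of these data known. The main values use all 207 cells, doublets were not called, and 0 pairs of cells were identical. Each age is 1 sample, so no p-value or standard error was computed, and 1.5-fold describes size only. Least-squares change points (shortest run 8 cells, penalty multiplier 1) gave the runs. Ratios were checked on simulated data. Python 3.11.15 with numpy 2.4.6, pandas 2.3.3, scipy 1.17.1 and matplotlib 3.10.9 was used. Alternatives covered the pseudocount, filter, run kind, single runs, detected genes, highest cells, macrophage markers and scaling. Leaving out the 6 captures was chosen after seeing the data.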

Additional observations from a re-analysis of the deposited data

How the results depend on the processing

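No paired analysis was possible because the cells carry no replicate number shared between the ages, and leaving out single animals was not possible because no cell is tied to an animal. Over 21 settings the median log2 ratio lay between -0.40 and 0.37 for lysosomal and between -0.46 and 0.01 for autophagy genes. In the same settings 11 of 33 members kept 1 sign. Atg5, Glb1, Lamp2 and Mcoln1 were higher and Atg7, Ctsh, Ctsl, Gaa, Map1lc3b, Sqstm1 and Ulk1 lower in old cells. All settings draw on the same 207 cells, and some kept signs came near 0, as for Sqstm1 (-0.02) and Lamp2 (0.07). The share of all genes keeping 1 sign is not given here, so this count is no result about the members. The other 22 changed sign in at least 1 setting, some by more than 1.5-fold: in high-kind runs Ctsb had -1.23 (0.28 over all cells), Scarb2 -1.28 (0.41) and Ctsf 1.15 (-0.46), and without the captures Ctsb had -0.01 in those runs. The 4 members at least 1.5-fold higher in old cells became 0 with the difference of mean log2(TPM + 1), 9 without the young cells 1 to 39, 2 without the young cells 55 to 86, 2 without the highest cell per gene and age, and 2 without cells carrying at least 2 macrophage markers. The 8 lower became 13 in low-kind runs, 13 without the old cells 159 to 190, 4 without the young cells 1 to 39 and 5 without cells carrying macrophage markers. Of all genes, 34.5% were lower in low-kind runs, against 26.4% over all cells. Shares of all genes in the other settings are not given here, so these higher and lower counts are no result about the members. Of the 12 members at 1.5-fold or more over all cells, signs turned for Gusb (-0.18) and Npc1 (0.042) with the difference of mean logs, for Hexa (0.23) and Psap (0.36) in high-kind runs, for Gusb (-0.16) and Laptm4a (-0.40) without the old cells 159 to 190, and for Psap (0.33) without the young cells 1 to 39. In high-kind runs without the 6 captures Ctsa (0.22), Hexa (0.28) and Psap (0.51) turned. The cause was not tested in any of these. All of these settings used fewer cells, except the difference of mean logs, which used all 69 old and 138 young cells. Of the other alternatives for single members, those for the 21 members within 1.5-fold included, 78 moved and 572 did not move past the limits set. Rescaled without insulin and mitochondrial genes, the lysosomal sum was 5647 TPM in old and 5672 TPM in young cells, and the autophagy sum 2590.3 TPM in old and 2692 TPM in young cells, since the same total is spread over fewer genes. The median share of cells with a member, 52.9% in old and 55.1% in young cells at TPM 1, was 64.5% in old and 72.5% in young cells above 0 TPM and 33.3% in old and 35.5% in young cells at TPM 10. Low members (Tfeb, Npc1, Atg7, Ulk1, Mcoln1) rest on few cells.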

Other observations

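Old cell 203 and young cell 38 stood out among the cells that are not macrophage-rich captures and were chosen after their values were seen. Old cell 203 had a lysosomal sum of 8857 TPM, the highest of the 201 other cells, with Cd63 at 4555, Ctsb at 946, Ctsd at 822, Tpp1 at 510 and Mcoln1 at 456 TPM, and its 12 macrophage markers summed to 0. Its Map1lc3b was 1077, its Gabarap 549.5 and its Sqstm1 499 TPM. Young cell 38 had the highest autophagy sum of all 207 cells, 4529 TPM, with Sqstm1 at 1862, Map1lc3b at 1740.5, Gabarapl2 at 457.5 and Atg5 at 372 TPM. Of the 12 macrophage markers 1 stood at a TPM of 10 or above in it, and their sum was 12.0 TPM. Its Gabarap, however, was the lowest of all young cells at 2.07 TPM. Its Ctsl reached 1418, its Lamp1 1159.9 and its Cd63 3243 TPM.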
